A study of Homo sapiens with 6 samples.

Results

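The genes described here are 35 named genes that make ribosomes: MYC, the transcription factor that drives many of them, proteins of the nucleolus that cut, modify and assemble ribosomal RNA, and 5 genes of RNA polymerase I and its promoter factors. They were listed by gene name, with earlier results of these data known, and all 35 were found among the 35750 genes listed. Ribosome production starts in the nucleolus, where RNA polymerase I copies the ribosomal RNA genes into a long precursor. Small nucleolar ribonucleoproteins (snoRNPs), which carry guide RNAs, modify this precursor, while large assemblies of helicases and scaffold proteins fold and cut it into the parts of the small and the large subunit. The pathway uses much of a growing cell's energy and amino acids, and MYC is known to raise many of its genes together.

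The measurements were poly(A)-selected RNA sequencing of T98G, a human glioblastoma cell line, in 2 groups of 3 libraries. The tested cells carried a short hairpin RNA against SLC1A5, a transporter of neutral amino acids that brings glutamine into the cell (shSLC1A5), and the others a control hairpin (shControl). The labels give no hairpin sequence, vector or time after delivery and do not say whether the cells were a pool or a clone. Since nothing says that the 3 libraries of a group were grown apart, a p-value here measures the spread of libraries and may reflect technical error alone.

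Total counts per library ran from 66998312 to 70802167 in shSLC1A5 and from 59327548 to 63420773 in shControl. SLC1A5 itself, the check on the labels, was at 87.5, 88.0 and 88.3 FPKM (fragment counts scaled by transcript length and sequencing depth) in shSLC1A5, against 95, 95.3 and 97.1 FPKM in shControl. All shSLC1A5 values lay below all shControl values, at a log2 fold change of -0.14 (SE 0.0183) or -9.02%. The adjusted p was 1.93e-04 in edgeR's quasi-likelihood test with Benjamini-Hochberg adjustment over the genes tested, the test used throughout. In the fit corrected for GC content and length (described below), its log2 fold change was -0.34 (adjusted p = 4.66e-07). Uncorrected, the fall of SLC1A5 was smaller than the median absolute log2 fold change of 0.229 among all called genes. It is thus a weak check of the labels. Directions below are those of the libraries labelled shSLC1A5. Of the markers listed for T98G, VIM at 336 to 397 FPKM and CD44 at 191 to 210 FPKM were abundant, while NES and CHI3L1 stayed under 0.7 FPKM, as did the glial gene GFAP. Markers of neutrophils summed to 4701 counts in shSLC1A5 replicate 1, 47 in replicate 2 and 39 in replicate 3, against 12 to 22 in shControl, with 7 of 8 detected in shSLC1A5 and 4 of 8 in shControl. Markers of B cells summed to 627 to 1246 counts in shSLC1A5 and 14 to 26 in shControl, with 7 of 7 detected in shSLC1A5, and 3 of 7 in shControl. Red cell markers, of which 4 of 6 were listed, summed to 779, 20 and 7 counts in shSLC1A5 and to at most 6 in shControl. ALAS2, an enzyme of heme synthesis, made up 773 of the 779 counts of shSLC1A5 replicate 1, where the globin genes HBA1 and HBA2 were at 0. T cell markers summed to 12 to 23 counts in shSLC1A5 and 0 to 4 in shControl (2 of 4 listed markers detected in each group). MPO of the neutrophil list and CD3E of the T cell list were at 0 in every library. IGHM, the B cell immunoglobulin heavy chain, had 729, 378 and 688 counts in shSLC1A5 and 0 in each shControl library. Without shSLC1A5 replicate 1, 3 of the 35 genes rose and 9 fell, against 3 and 13 with all libraries. Falls were similarly fewer whichever library was left out, so this drop is not particular to replicate 1. The share of all genes called in that smaller fit is not given here. B cell transcripts remained in shSLC1A5 replicates 2 and 3. Beyond this, the part of these marker transcripts in the results below was not tested.

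Ribosome biogenesis genes differed little between the groups, and more of them were lower than higher in shSLC1A5. In the edgeR test 13 of the 35 genes fell (37.1%), where 19.0% of the 11841 genes tested fell, and 3 rose (8.57%), where 20.2% of all genes tested rose. All 35 passed the filter on low values, which kept genes whose FPKM averaged 1 or more. In bulk RNA, fewer cells expressing a gene and less RNA per cell cannot be told apart. The median log2 fold change was -0.05 over the 35 genes and -0.006 over all genes tested, and 23 of the 35 values were negative (65.7%), against 51.1% of all genes tested. The 13 that fell were NPM1, NCL, DKC1, GAR1, NOLC1, DDX10, UTP20, WDR43, UTP4, NIP7, DDX21, WDR12 and TAF1D, and the 3 that rose were BOP1, MYC and UBTF. The sizes were small, from -0.30 for DDX10 to 0.20 for BOP1 on the log2 scale, with a median absolute value of 0.142 among the 16 called members and 0.229 among all called genes. In FPKM the libraries of the groups did not overlap for 18 of the 35 genes (49.6% of all genes tested), of which 13 were lower in shSLC1A5 (22.3% of all) and 5 higher (27.3% of all). With the replicate number as a block, 12 fell (18.2% of all genes tested) and 3 rose (19.5% of all), 15 called in either direction against 37.8% of all.

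The direction of a gene's change went with the GC content of its transcript. Fold changes of all genes tested increased with the GC content of the longest annotated transcript in these libraries (Spearman correlation 0.49 over 11800 genes, which share the same 6 libraries), and among the 35 genes the correlation was 0.77. All 13 genes that fell had a GC content under 50% and all 3 that rose had one of 50% or more, a boundary chosen after the data were seen. A second edgeR fit therefore removed, library by library, the trend of counts with GC content and length. In it 8 of the 35 genes fell (22.9%), where 13.8% of all genes tested fell, and 0 rose, where 11.6% of all genes tested rose. Beside those 0 rises, 2 genes were higher at an unadjusted p under 0.05 in the corrected fit, and DESeq2, uncorrected, called 4 higher. The 8 comprise 5 that also fell without the correction, NPM1, NCL, DKC1, DDX10 and NIP7, and 3 that did not, RRP9, RRP12 and PES1. The correction also removes any true difference that follows GC content, so values of both fits are set side by side below.

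**Figure D1:**
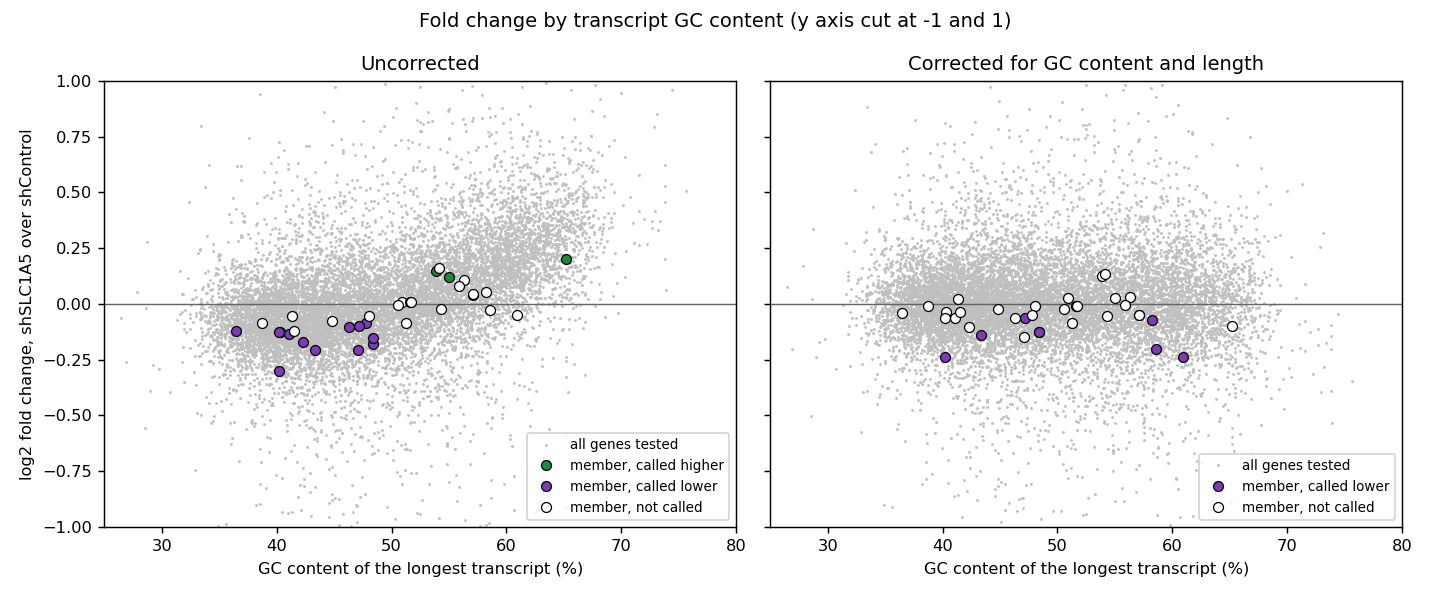
Log2 fold change of shSLC1A5 over shControl against the GC content of the longest annotated transcript in percent, before (left) and after (right) the correction for GC content and length. Small points are all genes tested and large points the 35 ribosome biogenesis genes, filled where called higher or lower; before the correction the 13 called lower lie under 50% GC and the 3 called higher above it, and after it 8 are called lower at both ends of the range.

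The 35 genes covered a wide range of levels, from a mean of 4.1 FPKM over all libraries for WDR12 to 331 FPKM for NPM1, with a median of 19.4 FPKM, and 28 of the 35 were at 10 FPKM or more. Libraries of a group were close to each other, with a median coefficient of variation over the 35 genes of 3.06% in shSLC1A5 and 3.16% in shControl. The least even gene in shControl was NOP2, at 20.6, 19.2 and 21.2 FPKM in shSLC1A5 against 16.1, 19.4 and 21.7 FPKM in shControl. Summed over the 35 genes, the level was 1236, 1236 and 1250 FPKM in shSLC1A5, against 1302, 1295 and 1315 FPKM in shControl. Every shSLC1A5 sum was thus below every shControl sum, by a difference of means of -63.3 FPKM, of which NPM1 alone made up -44.6 FPKM or 70.5%. NPM1 and NCL together summed to 454.1, 457.6 and 458.6 FPKM in shSLC1A5 and 510.2, 503.4 and 517.6 FPKM in shControl. The other 33 genes summed to 781.6, 778.3 and 791.3 FPKM in shSLC1A5 and 791.4, 791.6 and 797.0 FPKM in shControl, where the groups nearly touched.

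**Figure D2:**
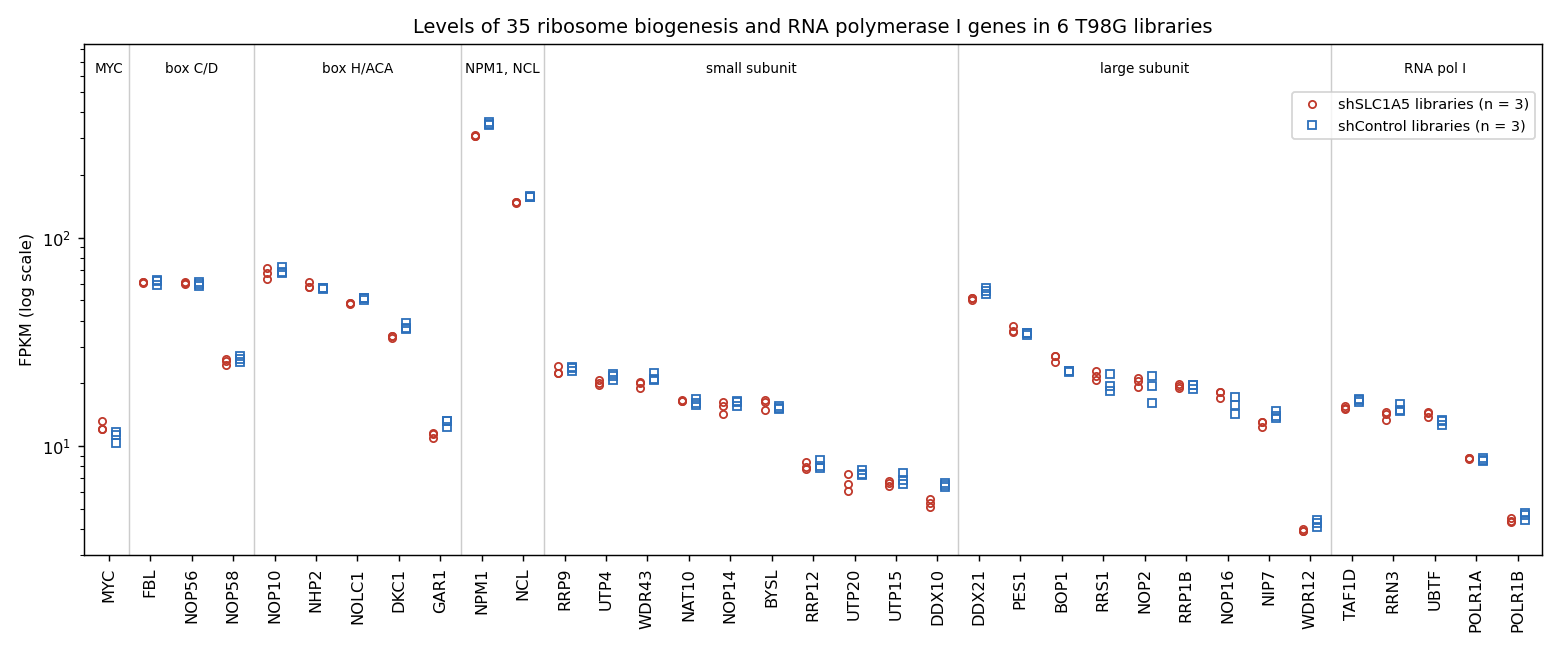
FPKM on a log scale for the 35 genes, grouped by role and ordered by level, with 3 shSLC1A5 libraries (circles, left) and 3 shControl libraries (squares, right) per gene. NPM1 and NCL stand above the rest, and for most genes the groups lie close together or overlap.

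MYC (chromosome 8, 127735434 to 127741434), which is known to raise transcription by all nuclear RNA polymerases, was slightly higher in shSLC1A5. Its level was 12.1, 12.1 and 13.2 FPKM in shSLC1A5, against 11.7, 11.3 and 10.4 FPKM in shControl. All shSLC1A5 values lay above all shControl values, though shSLC1A5 replicates 1 and 2 exceeded the highest control by little. The log2 fold change was 0.15 (SE 0.0535, edgeR adjusted p = 0.0459), or 0.12 corrected (adjusted p = 0.129, call lost). The call was also lost with the replicate number as a block (edgeR adjusted p = 0.0712), and without shSLC1A5 replicate 3 (0.149), shControl replicate 2 (0.0779) or shControl replicate 3 (0.151).

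The genes of RNA polymerase I and its promoter factors showed no shared direction. POLR1A, which encodes the largest subunit of the enzyme, was at 8.69, 8.82 and 8.75 FPKM in shSLC1A5 and 8.82, 8.55 and 8.49 FPKM in shControl. POLR1B, the second largest subunit, was at 4.50, 4.37 and 4.33 FPKM in shSLC1A5 and 4.76, 4.41 and 4.65 FPKM in shControl. The groups overlapped for both, with log2 fold changes of 0.01 (95% confidence interval -0.05 to 0.07) for POLR1A and -0.08 (-0.18 to 0.02) for POLR1B, or -0.01 and -0.02 corrected. UBTF (chromosome 17, 44205033 to 44221626), which binds ribosomal gene promoters and bodies and keeps them open, was at 13.8, 14.5 and 14.6 FPKM in shSLC1A5 and 12.6, 13.3 and 13.2 FPKM in shControl. All shSLC1A5 libraries were above all shControl libraries. UBTF rose by 0.12 on the log2 scale (SE 0.0337, edgeR adjusted p = 0.0166), but the corrected value was 0.03 (adjusted p = 0.578), and the call was lost without shSLC1A5 replicate 2 (0.0592) or 3 (0.0668) or shControl replicate 1 (0.0819).

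TAF1D (chromosome 11, 93729948 to 93784391), a subunit of the selectivity factor that recruits RNA polymerase I, moved the other way. It was at 15.6, 15.2 and 15.1 FPKM in shSLC1A5 and 16.6, 16.2 and 16.8 FPKM in shControl, with no overlap. TAF1D fell by 0.12 on the log2 scale (SE 0.0287, edgeR adjusted p = 0.00635) and kept the call without any one library (adjusted p up to 0.0351), but the corrected value was -0.04 (adjusted p = 0.340). Its exons overlap those of small nucleolar RNA genes on the same strand and of MED17, CEP295 and C11orf54 on the other, so its counts are uncertain. RRN3, which joins the polymerase to its promoter factors and responds to growth signals, was at 14.6, 13.3 and 14.3 FPKM in shSLC1A5, just below the 15.9, 14.7 and 14.9 FPKM of shControl. Its log2 fold change of -0.12 was not called (95% confidence interval -0.23 to -0.01, edgeR adjusted p = 0.0804), though it was with the block (0.0357), and the corrected value was -0.04 (0.620). Its 4 named pseudogene copies held 14.3% to 18.0% as many counts as RRN3 in shSLC1A5 and 13.8% to 15.2% in shControl, so reads may be split between them.

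**Figure D3:**
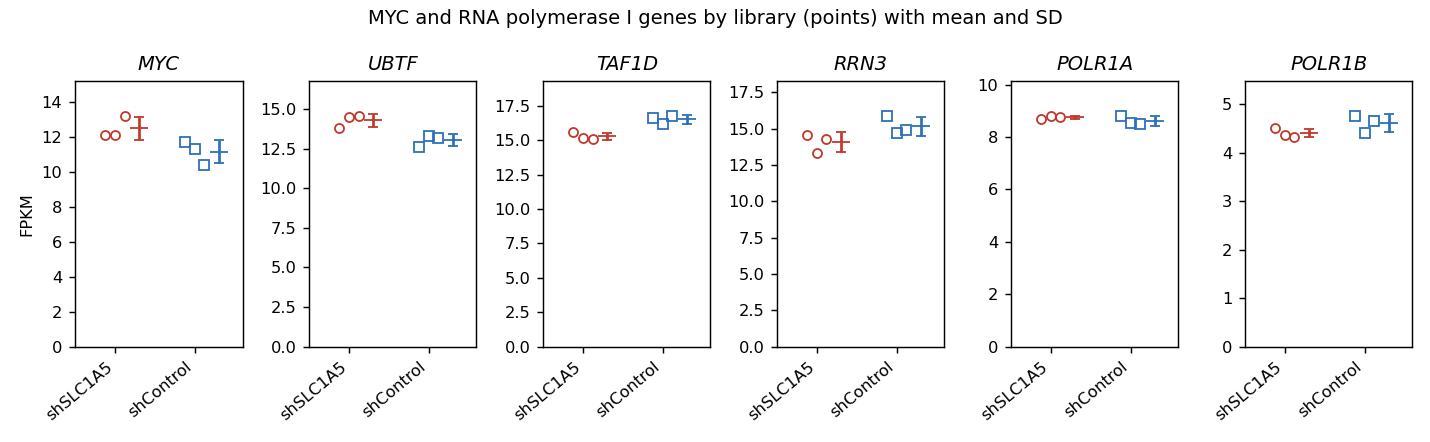
FPKM of MYC and of 5 RNA polymerase I genes in each shSLC1A5 library (circles, left) and shControl library (squares, right), with the mean and SD of 3 libraries beside them; axes start at 0. UBTF and MYC lie slightly higher and TAF1D and RRN3 slightly lower in shSLC1A5, while POLR1A and POLR1B overlap.

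The core proteins of box C/D snoRNPs, which guide methylation of ribosomal RNA, did not change detectably. FBL, the methyltransferase fibrillarin, was at 61.2, 61.5 and 60.6 FPKM in shSLC1A5 and 63.0, 59.4 and 62.1 FPKM in shControl. The libraries overlapped, with a log2 fold change of -0.02 (95% confidence interval -0.09 to 0.04, edgeR adjusted p = 0.592), or -0.05 corrected (adjusted p = 0.153). Its scaffold partners NOP56 and NOP58 were at 0.01 (-0.04 to 0.05) and -0.05 (-0.14 to 0.03) on the log2 scale, or 0.03 and 0.02 corrected, and 0 of these 3 genes were called in either fit. Beside that count, 0 of the 3 had an unadjusted edgeR p under 0.05 and 0 were called by DESeq2 or limma; the edgeR adjusted p values ran from 0.313 to 0.827.

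Box H/ACA snoRNPs convert uridine to pseudouridine and also stabilise telomerase RNA. Of 5 genes, those of this particle and the snoRNP chaperone NOLC1, 3 fell uncorrected (19.0% of all genes tested), NOLC1 among them. Corrected, 1 of 5 fell (13.8% of all). DKC1 (chromosome X, 154762742 to 154777688), the pseudouridine synthase dyskerin, was at 33.9, 33.1 and 33.6 FPKM in shSLC1A5, against 36.9, 36.6 and 39.1 FPKM in shControl. All shSLC1A5 libraries were lower. DKC1 fell by 0.18 on the log2 scale (SE 0.0292, edgeR adjusted p = 7.62e-04), or by 0.13 corrected (adjusted p = 0.00901), a corrected call that was lost without shSLC1A5 replicate 2 (0.0505). GAR1 (chromosome 4, 109815510 to 109824740), a small protein of the same particle, was at 11, 11.5 and 11.4 FPKM in shSLC1A5 and 13.2, 13.2 and 12.3 FPKM in shControl. It fell by 0.21 on the log2 scale (SE 0.0567, edgeR adjusted p = 0.0147), a call lost with the correction (-0.15, adjusted p = 0.102) and without shSLC1A5 replicate 1 (0.0620) or shControl replicate 1 (0.0505). NOLC1, a chaperone of snoRNPs in the nucleolus and Cajal bodies, was at 48.6, 48.6 and 48.3 FPKM in shSLC1A5 and 51.4, 50.2 and 51.5 FPKM in shControl. It fell by 0.09 (SE 0.0217, edgeR adjusted p = 0.00978), and the corrected value was -0.05 (adjusted p = 0.108). The 2 remaining proteins of the particle were not called. NOP10, the most abundant gene of this group, overlapped at 67.9, 63.5 and 71.3 FPKM in shSLC1A5 and 68.4, 72.5 and 67.6 FPKM in shControl, with a log2 fold change of -0.05, or -0.01 corrected. NHP2 was at 0.04 on the log2 scale (95% confidence interval -0.04 to 0.12), or -0.05 corrected (adjusted p = 0.398).

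NPM1 and NCL, the most abundant of the 35 genes, had the smallest standard errors of the fold change. NPM1 (chromosome 5, 171387116 to 171411137) encodes nucleophosmin, a histone chaperone that organises the granular part of the nucleolus and helps export ribosomal subunits. It was at 306, 308 and 311 FPKM in shSLC1A5, against 351, 348 and 360 FPKM in shControl, with no overlap between groups. NPM1 fell by 0.21 on the log2 scale (SE 0.0165, edgeR adjusted p = 4.24e-06), or by 0.14 corrected (adjusted p = 4.12e-05). Both calls held without any one library, with adjusted p up to 5.61e-05 uncorrected and up to 3.72e-04 corrected. NPM1 has 21 named pseudogene copies in the table, which together held 1.96% to 2.11% as many counts as NPM1 in shSLC1A5 and 1.78% to 1.97% in shControl. NCL (chromosome 2, 231453531 to 231483641), nucleolin, binds precursor ribosomal RNA and opens ribosomal chromatin. It was at 148, 149 and 147 FPKM in shSLC1A5 and 159, 156 and 157 FPKM in shControl. It fell by 0.10 on the log2 scale (SE 0.0163, edgeR adjusted p = 8.16e-04), or by 0.06 corrected (adjusted p = 0.0159), a corrected call lost without shSLC1A5 replicate 3 (0.0531) or shControl replicate 1 (0.0501).

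Of 10 genes of the small subunit processome and later small subunit precursors, 4 fell and 0 rose without the correction, where 19.0% of all genes tested fell and 20.2% rose. With it 3 fell and 0 rose, where 13.8% and 11.6% of all genes did. Beside those 0 rises, 0 were higher at an unadjusted edgeR p under 0.05 and 0 by DESeq2; BYSL and NAT10 had positive values with adjusted p of 0.556 and 0.879. DDX10 (chromosome 11, 108665069 to 108940927), an RNA helicase whose yeast relative releases a snoRNA from the precursor, showed the largest difference of the 35 genes. Its level was 5.57, 5.34 and 5.11 FPKM in shSLC1A5, against 6.52, 6.67 and 6.37 FPKM in shControl. The groups were well apart, and DDX10 fell by 0.30 on the log2 scale (SE 0.0442, edgeR adjusted p = 3.73e-04), an 18.8% lower level, or by 0.24 corrected (adjusted p = 0.00191). Both calls held without any one library, with adjusted p up to 0.00195 uncorrected and up to 0.00834 corrected. UTP20 (chromosome 12, 101280105 to 101386618), a very long scaffold protein, was at 6.11, 7.35 and 6.61 FPKM in shSLC1A5 and 7.30, 7.72 and 7.34 FPKM in shControl. The groups overlapped, since shSLC1A5 replicate 2 reached control levels. UTP20 fell by 0.17 on the log2 scale (SE 0.0570, edgeR adjusted p = 0.0365), but the corrected value was -0.10 (adjusted p = 0.208). That call was also lost when any library but shSLC1A5 replicate 2 was left out (0.0682 to 0.124).

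WDR43 (chromosome 2, 28894667 to 28948219) and UTP4 belong to the complex that loads first onto the precursor. WDR43 was at 19.1, 20.3 and 20.2 FPKM in shSLC1A5 and 22.5, 21.1 and 20.8 FPKM in shControl, apart by a small margin. It fell by 0.12 on the log2 scale (SE 0.0409, edgeR adjusted p = 0.0335), with a corrected value of -0.04 (adjusted p = 0.555). The call was lost with the block (0.0527) and when any library but shControl replicate 3 was left out (0.0589 to 0.159). UTP4 was at 20.2 ± 0.593 FPKM in shSLC1A5 and 21.5 ± 0.632 FPKM in shControl (SD, n = 3 each). It fell by 0.10 on the log2 scale (edgeR adjusted p = 0.0228) and lost the call with the correction (-0.06, adjusted p = 0.158) and without shSLC1A5 replicate 1 (0.0968) or 2 (0.0773) or shControl replicate 2 (0.0681) or 3 (0.0875). UTP4 overlaps CHTF8 on the other strand, which was expressed at 23.8 FPKM, so its counts are uncertain.

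RRP9, a protein of a snoRNP needed for the first cuts, and RRP12, an export factor of the small subunit, are GC-rich. Both were called with the correction only. RRP9 (chromosome 3, 51933429 to 51941904) was at 22.4, 24.2 and 22.5 FPKM in shSLC1A5 and 23.0, 23.8 and 24.1 FPKM in shControl, which overlap. Its uncorrected log2 fold change was -0.05 (SE 0.0445, edgeR adjusted p = 0.426) and its corrected one -0.24 (adjusted p = 0.00253). RRP12 was at -0.03 uncorrected (adjusted p = 0.684) and -0.20 corrected (adjusted p = 0.00996). Without the correction neither difference exceeded the spread between libraries. UTP15, NOP14, the acetyltransferase NAT10 and BYSL, a factor of late small subunit assembly, were not called in either fit, with log2 fold changes from -0.08 to 0.04 uncorrected and from -0.08 to -0.01 corrected.

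Among genes of large subunit assembly 3 of 9 fell and 1 rose uncorrected, where 19.0% of all genes tested fell and 20.2% rose. Corrected, 2 fell and 0 rose, where 13.8% and 11.6% of all genes did; beside those 0 rises, 1 was higher at an unadjusted p under 0.05, and DESeq2, uncorrected, called 2. BOP1, PES1 and WDR12 form one complex, and their log2 fold changes were 0.20, 0.05 and -0.13 uncorrected, but -0.10, -0.07 and -0.06 corrected; differences between the 3 genes were not tested. BOP1 (chromosome 8, 144262045 to 144291438), the scaffold of that complex, was at 27.1, 25.4 and 27.0 FPKM in shSLC1A5, against 22.6, 23.0 and 23.0 FPKM in shControl. All shSLC1A5 libraries were higher. BOP1 rose by 0.20 on the log2 scale (SE 0.0357, edgeR adjusted p = 0.00123), but its transcript has the highest GC content of the 35 genes, 65.2%, and the corrected value was -0.10 (adjusted p = 0.0890). PES1 was at 36.2 ± 1.19 FPKM in shSLC1A5 and 34.6 ± 0.450 FPKM in shControl (SD, n = 3 each). Every shSLC1A5 value of PES1 lay above every shControl value, though its corrected value was negative. Its log2 fold change was 0.05 (adjusted p = 0.136), or -0.07 corrected (adjusted p = 0.0487), a call lost when any library but shSLC1A5 replicate 2 was left out (adjusted p up to 0.185). WDR12 was at 3.94 ± 0.0546 FPKM in shSLC1A5 and 4.26 ± 0.172 FPKM in shControl. It fell by 0.13 on the log2 scale (edgeR adjusted p = 0.0434), with a corrected value of -0.06 (adjusted p = 0.371), and the call was lost with the block (0.0580) and when any library but shControl replicate 2 was left out (0.0614 to 0.118).

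NIP7 (chromosome 16, 69337996 to 69343104), which acts in late cutting of the precursor, was at 12.4, 13.0 and 13.0 FPKM in shSLC1A5 and 13.9, 13.6 and 14.8 FPKM in shControl. It fell by 0.16 on the log2 scale (SE 0.0418, edgeR adjusted p = 0.0132), or by 0.12 corrected (adjusted p = 0.0451). The uncorrected call was lost without shControl replicate 3 (0.0549), and the corrected one when any library but shControl replicate 2 was left out (adjusted p up to 0.157). NIP7 overlaps COG8 on the other strand, which was expressed at 3.98 FPKM, so its counts are uncertain. DDX21 (chromosome 10, 68956170 to 68985068), a helicase that links RNA polymerase I transcription to processing, was at 51.1, 51.2 and 50.5 FPKM in shSLC1A5 and 55.2, 57.4 and 53.7 FPKM in shControl. The groups did not overlap. DDX21 fell by 0.13 on the log2 scale (SE 0.0256, edgeR adjusted p = 0.00190), with a corrected value of -0.06 (adjusted p = 0.0792). The 4 other genes, NOP2, NOP16, RRS1 and RRP1B, were not called in either fit. NOP2, which methylates large subunit ribosomal RNA, had a log2 fold change of 0.08 with the wide 95% confidence interval of -0.10 to 0.26, or -0.004 corrected. NOP16 was at 0.16 (0.01 to 0.31, edgeR adjusted p = 0.0791), or 0.14 corrected (adjusted p = 0.118). Without shControl replicate 1 it was called (0.0100), as it was with the block (0.0248), and RRS1 was called without shControl replicate 3 (0.0255). NOP16 overlaps HIGD2A, at 55.1 FPKM, on the other strand, so its counts are uncertain. Exons of NHP2, PES1, UTP15 and NOP2 also overlap those of another gene, at 1.33 to 3.84 FPKM, so the same limit holds for them.

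**Figure D4:**
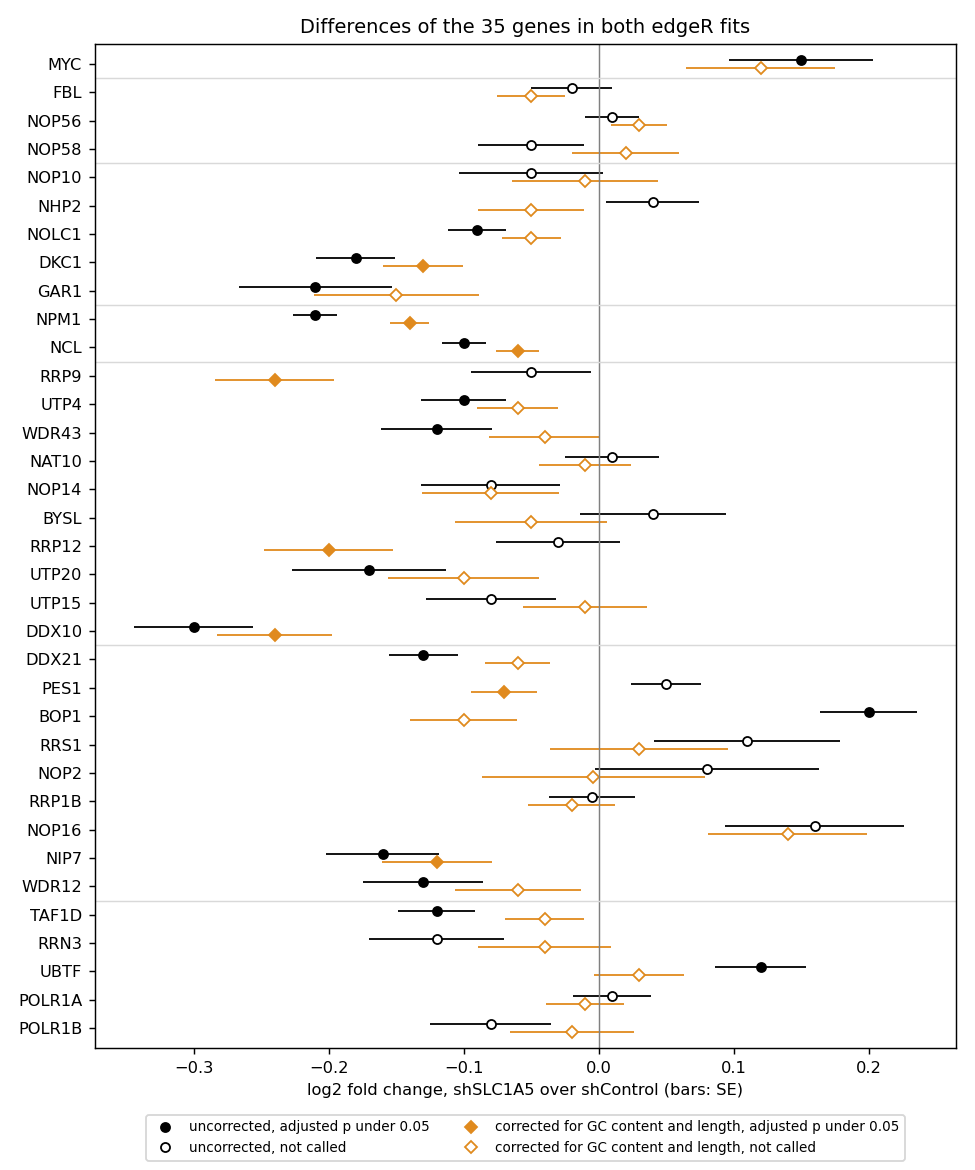
Log2 fold change of shSLC1A5 over shControl with its SE for the 35 genes, grouped by role as in the plot of levels, uncorrected (black circles) and corrected for GC content and length (orange diamonds); filled symbols have an adjusted p under 0.05. BOP1 moves from 0.20 to -0.10 and RRP9 from -0.05 to -0.24 between the fits, while NPM1 and DDX10 stay lower in both.

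The 35 genes were set beside all tested genes of their GC class. Among the 18 genes under 50% GC, 13 fell (72.2%), where 27.7% of the 6631 tested genes under 50% GC fell, and the median log2 fold change was -0.12 against -0.07 for all of those. Among the 17 genes at or above 50% GC, 0 fell and 3 rose (17.6%), where 7.87% of the 5169 tested genes in that class fell and 38.0% rose. Their median was 0.04, against 0.12 for all genes of the class. Corrected, 27.8% of the 18 genes under 50% GC fell, against 12.8% of all tested genes in that class. At or above 50% GC 17.6% of the 17 genes fell, against 15.1% of all. In the corrected fit 0 rose in either class, against 10.8% of all genes under 50% GC and 12.7% of the others. With the correction 29 of the 35 values were negative, with a median of -0.05 over the 35 genes and -0.004 over all genes tested. These shares are descriptions of a list whose results were known beforehand. For the 19 members not called in the uncorrected fit, 14 had a 95% confidence interval that lay within 0.2 of 0 on the log2 scale, and no bound among the 19 went beyond -0.23 or 0.31.

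Many promoters of these genes carry the E-box CACGTG, known as a preferred site of MYC with its partner MAX and the same on both strands. In RefSeq promoters on GRCh38.p14, from 250 bases before to 50 after each annotated start, 28 of the 35 genes were matched by symbol and 13 of these (46.4%) held CACGTG in at least one listed promoter. The share was 24.2% of 153 other genes of the pathway, 12.9% of 8664 tested genes and 8.77% of all 27305 genes with a promoter. It was 5 of 12 among matched members that fell, 0 of 1 among those that rose and 8 of 15 among those not called. Of 14 matches 13 lay within 60 bases of the start. The 60 bases before the start are shown for the 5 genes whose match lies wholly in them, 5′ to 3′ on the strand of the gene, with the motif in capitals. DDX21, UTP20 and UTP4 fell in the uncorrected fit, and NAT10 and NOP10 were not called.
DDX21, chr10:68956587-68956646, plus strand: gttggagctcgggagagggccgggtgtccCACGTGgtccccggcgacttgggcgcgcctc
UTP20, chr12:101280045-101280104, plus strand: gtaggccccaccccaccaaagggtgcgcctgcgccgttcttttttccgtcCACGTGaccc
UTP4, chr16:69132589-69132648, plus strand: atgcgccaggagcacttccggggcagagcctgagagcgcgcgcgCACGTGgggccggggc
NAT10, chr11:34105569-34105628, plus strand: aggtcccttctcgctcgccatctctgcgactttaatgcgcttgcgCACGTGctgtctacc
NOP10, chr15:34343137-34343196, minus strand: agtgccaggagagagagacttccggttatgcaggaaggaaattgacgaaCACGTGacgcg
The motif thus stood before genes that fell and before genes that were not called. A match describes these letters and is neither a site nor a cause.

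In the wider pathway the shares lay nearer to those of all genes. Of 181 further genes on lists of the same pathway, 180 were found and tested. In the uncorrected fit 47 fell (26.1%) and 33 rose (18.3%), where 19.0% and 20.2% of all genes tested did. With the correction 29 fell (16.1%) and 12 rose (6.67%), where 13.8% and 11.6% of all genes did. These 4 all-gene shares are the background for each list that follows. Both lists of subunit assembly had more genes lower than higher. The lists of snoRNP assembly and of the RNA exosome did so by few genes. Among other large subunit genes 22 of 59 fell (37.3%) and 11 rose (18.6%), or 14 (23.7%) and 1 (1.69%) with the correction. The shares that fell were close to those of the 35 genes, 37.1% uncorrected and 22.9% corrected. ZNF622, whose yeast relative acts in late large subunit maturation, was at 21.2 ± 1.03 FPKM in shSLC1A5 and 25.8 ± 0.517 FPKM in shControl (SD, n = 3 each). It fell by 0.30 on the log2 scale (edgeR adjusted p = 3.76e-04), and by 0.31 corrected. PPAN rose by 0.34 uncorrected, but was at 0.09 corrected (adjusted p = 0.424). Among other small subunit genes 16 of 51 fell (31.4%) and 6 rose (11.8%), or 8 (15.7%) and 1 (1.96%) with the correction. The largest uncorrected differences there were rises of NOC4L, at 0.29 uncorrected and 0.003 corrected, and of PWP2, at 0.42 (adjusted p = 0.0444) and 0.21 corrected. The 1 called higher with the correction was ABT1, at 0.26 uncorrected (adjusted p = 0.00861) and 0.33 corrected (adjusted p = 0.00385), named after its values were seen. The PWP2 call was lost with the correction (0.324) and without any one library but shControl replicate 2 (0.0695 to 0.145).

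Of 16 other subunits and promoter factors of RNA polymerase I, 4 rose (25%) and 0 fell, or 1 (6.25%) and 0 with the correction. Of these 4, POLR2E, POLR2H and POLR2L are subunits shared with other RNA polymerases and TAF1C is a promoter factor, so no subunit particular to RNA polymerase I was called. Beside the 0 falls, 2 genes were lower at an unadjusted edgeR p under 0.05 uncorrected and 0 corrected; DESeq2 called 0 lower, and limma after quantile normalization called 1. The uncorrected log2 fold changes ran from -0.22 to 0.34. POLR2E, a subunit shared by all nuclear RNA polymerases, was at 21.7 ± 0.747 FPKM in shSLC1A5 and 17 ± 0.234 FPKM in shControl (SD, n = 3 each). It rose by 0.34 on the log2 scale (edgeR adjusted p = 3.12e-05), or by 0.18 corrected (0.00237). TAF1C, like TAF1D a part of the selectivity factor, rose by 0.31 uncorrected and was at 0.05 corrected (0.449).

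On the snoRNP assembly list 3 of 11 fell (27.3%) and 2 rose (18.2%), or 3 and 1 with the correction. ZNHIT6, which builds box C/D particles, fell by 0.32 on the log2 scale (-0.25 corrected, adjusted p = 0.00280), and PIH1D1, an adaptor of the HSP90 cochaperone complex, rose by 0.34 (0.26 corrected, adjusted p = 0.00758). On the list of the RNA exosome and other trimming factors, which shorten precursor ends, 4 of 17 fell (23.5%) and 1 rose (5.88%). With the correction 2 fell (11.8%) and 1 rose, while 12 of the 17 values were positive, with a median of 0.05. EXOSC8 was at -0.29 (-0.21 corrected) and EXOSC4 at 0.32 (0.23 corrected), and all 4 values had an edgeR adjusted p under 0.05. The corrected EXOSC4 call was lost when any library but shSLC1A5 replicate 1 was left out (adjusted p up to 0.129). Of 15 snoRNA host RNAs 4 rose (26.7%) and 2 fell (13.3%), or 6 (40%) and 2 with the correction. SNHG6 rose by 0.30 on the log2 scale, or by 0.42 corrected (adjusted p = 1.58e-04), while SNHG7 rose by 0.32 and was at -0.003 corrected (adjusted p = 0.970).

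In the MYC network 5 of 11 genes rose (45.5%) and 0 fell, or 1 (9.09%) and 0 with the correction. Beside the 0 falls, 1 gene, MGA, was lower at an unadjusted edgeR p under 0.05 and was called with the block (adjusted p = 0.0387), and DESeq2 and limma after quantile normalization called 1 each. MXI1, which competes with MYC for MAX and represses its targets, was at 2.71 ± 0.0931 FPKM in shSLC1A5 and 2.11 ± 0.259 FPKM in shControl (SD, n = 3 each). It rose by 0.34 on the log2 scale (edgeR adjusted p = 0.0143), or by 0.42 corrected (adjusted p = 0.00796), and lost the call without shSLC1A5 replicate 1 (0.0570) or shControl replicate 1 (0.0546). MXD4, a related repressor, rose by 0.34 and was at 0.20 corrected (adjusted p = 0.0898). MNT, another MAX partner, rose by 0.28 (adjusted p = 0.00679) and was at 0.03 corrected (adjusted p = 0.767). MAX itself was at 4.20 ± 0.335 FPKM in shSLC1A5 and 4.31 ± 0.383 FPKM in shControl, with overlapping groups and a log2 fold change of -0.05 (edgeR adjusted p = 0.624), or -0.04 corrected.

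**Figure D5:**
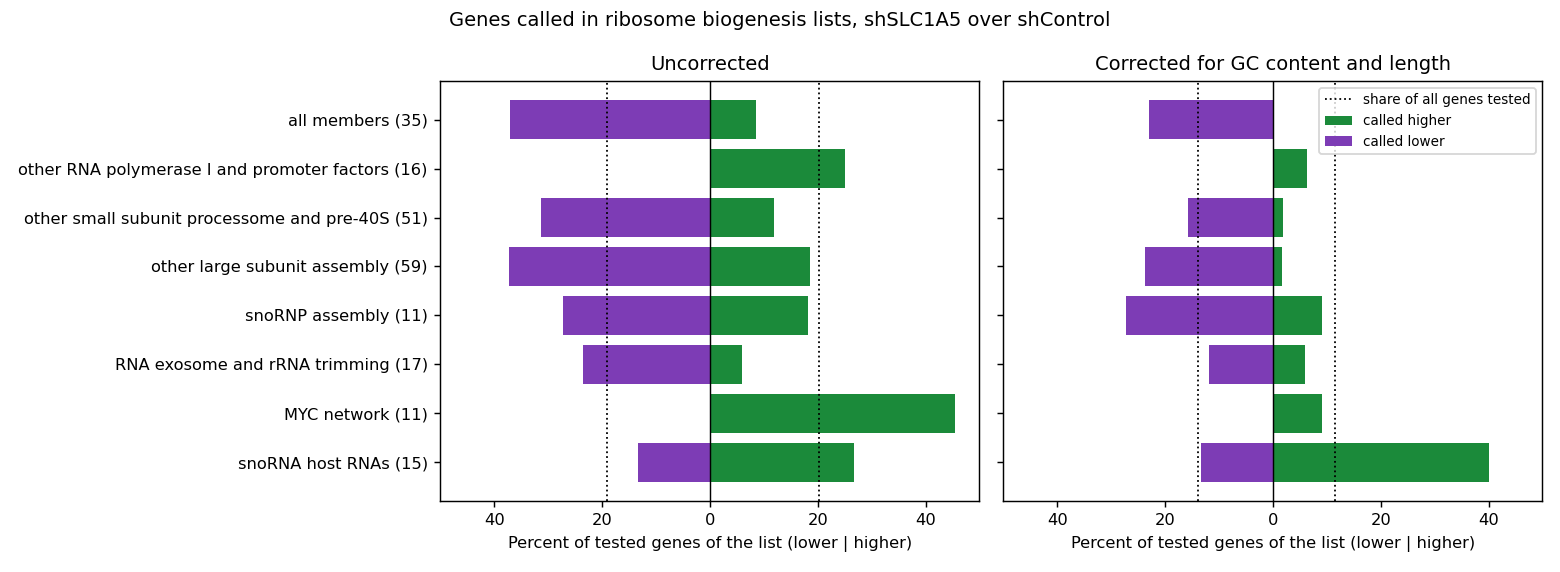
Percent of tested genes called lower (left of 0) and higher (right of 0) in shSLC1A5 for the 35 genes and for 7 further lists (number of tested genes in brackets), uncorrected and corrected for GC content and length; dotted lines mark the share of all genes tested. The 35 genes and both subunit lists have larger shares lower than higher, as do, by few genes, the snoRNP assembly and RNA exosome lists. The lists of other RNA polymerase I genes and of the MYC network, which leave out the 35 genes and so TAF1D, have 0 genes called lower.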

How the data were processed

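RNA of 6 T98G libraries, 3 shSLC1A5 and 3 shControl, was sequenced as read pairs of 150 bases after oligo(dT) capture, per the labels' protocols. The tools fastp, HISAT2 and StringTie are named per the submitters' processing notes. Not given in the sources used here are their versions, the genome build, the strand setting and how reads matching more than 1 gene were treated. The authors deposited 1 table with whole-number counts per gene, taken as raw, and with FPKM, per the file headers. Columns were matched by NC or sh and the number in the titles. All 35 genes overlap the same gene of GENCODE 29 on GRCh38.

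The test was edgeR 4.0.16 in R 4.3.3: TMM normalization, group alone in the model, quasi-likelihood F test, Benjamini-Hochberg adjustment over the 11841 genes whose FPKM averaged 1 or more, and an adjusted p under 0.05 as the threshold. The SE is the fold change divided by the square root of F. The correction fitted each library's deviations in log2 CPM by loess (span 0.3) on the length and GC content of a gene's longest transcript in GENCODE 29 and used the fit as offsets; 99.7% of tested genes had both values. Alternatives were DESeq2 1.42.0, limma 3.58.1 on log2(FPKM + 1) and log2(FPKM + 0.1), median-of-ratios scaling, quantile normalization, other filters, protein-coding genes alone, a fit blocked on replicate number and fits leaving out 1 library. The edgeR fit, median-of-ratios scaling, the replicate block, DESeq2 and the correction were each tested on simulated data. The other alternatives were not tested this way. Members and lists were chosen with earlier results of these data known. Named were SLC1A5, MYC, the RNA polymerase I genes, per other role up to 3 called members of largest change and the most abundant, per list up to 2 called genes, and MAX and MNT; other members are given more briefly. NOPCHAP1 was not matched in the table. Libraries of a group differed by 9.82 to 16.7 times the counting variance per gene, so none was counted as a repeat of another. Exact permutation tests over 3 against 3 libraries cannot go below p = 0.1, and were not used for calls.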

Additional observations from a re-analysis of the deposited data

How the results depend on the processing

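The counts of members that rose and fell were 3 and 13 and those of other pathway genes 33 and 47. Corrected for GC content and length, they were 0 and 8, and 12 and 29, and with the replicate block added to the correction 0 and 7, and 10 and 27. The block alone gave 3 and 12, and 33 and 46. Shares of all genes called are given above for the uncorrected, the corrected and the block fit only. Counts from the other fits have no such share beside them. They show how the calls shift, not how members compare with all genes. Same-numbered libraries did not deviate together (correlations -0.15, 0.04 and -0.03), so the numbers were not taken as pairs. With no minimum FPKM 1 member rose and 27 other genes fell, with a mean FPKM of at least 5 the members that rose numbered 5, and limma on log2(FPKM + 1) gave 31 other genes that fell. Leaving out 1 library at a time, members that rose ranged from 1 (without shSLC1A5 replicate 3) to 3 and members that fell from 9 to 10, other genes from 27 to 31 and from 34 to 40, and the median of members from -0.07 to -0.03. Without shSLC1A5 replicate 1, the library with neutrophil transcripts, 3 members rose and 9 fell. Within the corrected fit, an alternative added after the data were seen, leaving out shSLC1A5 replicates 1, 2 and 3 and then shControl replicates 1, 2 and 3 gave 6, 7, 5, 5, 7 and 8 members that fell, 11, 10, 10, 13, 11 and 9 other genes that rose and 22, 19, 23, 20, 24 and 22 that fell; 0 members rose, or 1 without shControl replicate 1. The sign differed between the uncorrected and the corrected fit for 8 members and 44 other genes, of which 1 and 10 were called uncorrected, 1 and 3 corrected, and 0 in both. Among named genes past the threshold in either fit, BOP1 turned to -0.10 with the correction, alone or with the block, PES1 to -0.07 (-0.09 without shSLC1A5 replicate 2) and SNHG7 to -0.003 in both; the cause was not tested. SLC1A5 stayed lower in every setting, from -0.35 to -0.10. Directions of log2 differences this small rest on the scaling and on 3 libraries per group.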
